A study of Homo sapiens with 6 samples.

Results

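Neuropeptide signalling in SK-N-SH cells was examined through 10 genes: the neurotensin receptor gene NTSR1, the peptide precursor genes NTS, NPY, GAL and VIP, the receptor genes VIPR1, OPRM1, OPRD1 and BDKRB2, and the sorting receptor gene SORT1. They were selected by symbol among the 26789 genes of the deposited table, and each symbol occurred in 1 row. NTSR1 was chosen because it was among the few genes past the adjusted threshold between dopamine-treated and control cells, and the other 9 were grouped around it. The levels and differences of these 10 genes in that comparison are therefore given as a description, and no test is drawn from them.

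SK-N-SH is a human neuroblastoma line, a tumour of the sympathetic nervous system lineage, and all 6 samples were wild type. The cells had 24 h in standard medium and were then given dopamine (n = 3) or medium alone (control, n = 3) for 6 h. The unit of the dopamine dose in the labels appears to be incomplete, so no dose is given here. Sample labels name SK-N-SH throughout, although the design text of the series speaks of treating its subline SH-SY5Y. The labels do not say that the replicates came from separate cultures, so the spread between them may be technical.

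Neuropeptides are cut from larger precursors inside dense-core granules, are released by regulated exocytosis and act on G protein-coupled receptors. Neurotensin is one of them, and its high-affinity receptor NTSR1 signals through Gq proteins and phospholipase C. Another protein that binds it, sortilin, is a transport receptor of the Golgi and endosomes and not a G protein-coupled receptor. Sympathetic neurons and neuroblastic tumours are known for making neuropeptide Y, galanin and vasoactive intestinal peptide, and neuroblastoma lines are a common model for opioid and bradykinin receptors.

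Values were FPKM, which counts a gene's fragments per kilobase and per library total, so levels of different genes can be set side by side. Library totals, recovered from the steps between low values of short pseudogenes, ran from 19451000 to 24286000 fragments. Of 14 neuronal neuroblastoma markers 13 had a mean of at least 1 FPKM, and their summed level was 339 to 380 FPKM with dopamine and 334 to 378 FPKM in control cells. Of 13 markers of the substrate-adherent cell type of such lines, 12 were at that level, with sums of 1863 to 2029 FPKM with dopamine and 2077 to 2195 FPKM in control cells. Of 10 markers of epithelial, immune and endothelial cells only the keratin genes KRT8, KRT18 and KRT19 were, and the 10 summed to 106 to 121 FPKM with dopamine and 140 to 175 FPKM in control cells, with PTPRC, the leukocyte marker, listed at 0 in 5 of the 6 libraries. The largest parts of the substrate-adherent sums were VIM, S100A6 and COL1A1, and the ranges of each overlapped between the groups. At an unadjusted p under 0.05 in limma, 3 of the 12 tested markers of this type were higher and 1 was lower with dopamine. Of all tested genes 24.4% were higher and 8.05% lower, and the median log2 fold change of the 12 was -0.01. The dependence of expression on GC content also moved with the groups. Each library's log2 values were set against the mean of all 6 libraries, gene by gene. The slopes are therefore relative and balance over the 6 libraries, so opposite signs in the groups are not independent. Per 10 points of GC, these deviations sloped by -0.03, -0.06 and -0.26 in dopamine replicates 1, 2 and 3 and 0.02, 0.11 and 0.22 in control replicates 1, 2 and 3. For this reason differences of the 7 members in the fit are also given after each library was corrected for GC content and length of transcripts (the GC and length correction). With it, 0 of the 12 substrate-adherent markers were higher and 4 were lower at an unadjusted p under 0.05 in limma (8.14% and 8.82% of all tested genes).

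The sequences just upstream of NTSR1 and VIP are shown because these members had the largest difference in each direction as deposited (after the GC and length correction BDKRB2 was above VIP). Each runs over the 250 bases before the start site in the RefSeq promoter table (GRCh38.p14, plus strand), which held 9 of the 10 members (15 start sites) and not GAL. Capitals mark matches on either strand to a GC box (GGGCGG), the core of the cyclic AMP response element (TGACG), its palindrome (TGACGTCA), an AP-1 site (TGANTCA) or a TATA box (TATAAA). Overlapping matches were kept, and the palindrome contains the core.
NTSR1, chr20:62708586-62708835: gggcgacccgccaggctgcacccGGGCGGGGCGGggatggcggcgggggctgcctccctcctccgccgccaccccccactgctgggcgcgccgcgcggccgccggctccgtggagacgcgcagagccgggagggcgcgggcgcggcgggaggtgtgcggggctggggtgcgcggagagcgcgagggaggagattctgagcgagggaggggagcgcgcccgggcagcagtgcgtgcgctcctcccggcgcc
VIP, chr6:152750547-152750796: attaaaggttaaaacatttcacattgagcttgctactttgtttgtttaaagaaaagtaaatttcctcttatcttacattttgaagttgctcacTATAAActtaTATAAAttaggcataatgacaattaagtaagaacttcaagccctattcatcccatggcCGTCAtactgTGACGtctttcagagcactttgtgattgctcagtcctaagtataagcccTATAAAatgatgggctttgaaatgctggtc
The NTSR1 window held 82.0% GC and 38 CpG dinucleotides, and 98.3% of the 35116 windows in the table had a lower GC content. Its matches were 2 overlapping GC boxes, starting 227 and 222 bases before the start site. The VIP window held 34.0% GC and 2 CpG dinucleotides, and 4.4% of windows had a lower GC content. It had cores 89 and 79 bases before the start, in opposite orientation, and TATA boxes 157, 147 and 30 bases before it. A GC box was found in 42.6% of all windows, a core in 21.2% and a TATA box in 10.7%. The palindrome was found in 1.6% of windows and the AP-1 site in 6.6%, and neither in a window of any member. These matches describe letters and not binding.

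NTSR1 (ENSG00000101188.4, hg19 chromosome 20, 61340189 to 61394123) was measured at 7.90, 10.0 and 8.55 FPKM in dopamine replicates 1, 2 and 3, against 15.9, 18.4 and 20.0 FPKM in control replicates 1, 2 and 3. The highest dopamine value lay well below the lowest control value. The means were 8.83 ± 1.10 FPKM with dopamine and 18.1 ± 2.05 FPKM in control cells (SD, n = 3 each), a log2 fold change of -1.0 (SE 0.12) on the log2(FPKM + 0.5) scale. With the length of its longest annotated transcript, 4132 bases, these values stand for about 675 to 807 fragments with dopamine and 1490 to 1850 in control cells, so counting error is small beside the spread between libraries. In bulk RNA, fewer cells that express a gene and less of its RNA per cell cannot be told apart.

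After the GC and length correction NTSR1, whose longest transcript has 64.2% GC, stood at 3.10, 3.43 and 3.39 log2 units in dopamine replicates 1, 2 and 3, against 3.99, 4.15 and 4.23 in control replicates 1, 2 and 3. The groups remained apart and the log2 fold change was -0.82 (SE 0.10). An antisense gene that overlaps the NTSR1 locus reached at most 0.112 FPKM in any library.

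Genes whose course over the 6 libraries was closest to that of NTSR1 were found by the root mean square difference between mean-centred log2 profiles, which had a median of 0.57 log2 units over all tested genes. The 5 nearest were WNT7B (a Wnt ligand gene, distance 0.15), CITED4 (a transcriptional cofactor gene, 0.19), MARCH4 (an E3 ubiquitin ligase gene, 0.20), C16orf74 (0.21) and KRT18 (a keratin gene of simple epithelia, 0.23). WNT7B averaged 1.37 ± 0.267 FPKM with dopamine and 2.55 ± 0.421 FPKM in control cells (SD, n = 3 each). CITED4 averaged 15.8 ± 1.68 FPKM with dopamine and 24.9 ± 0.732 FPKM in control cells. KRT18 averaged 95.4 ± 7.91 FPKM with dopamine and 141 ± 17.3 FPKM in control cells. All 5 were lower in each dopamine library than in any control library, which follows from picking them for likeness to NTSR1 in these libraries. Their transcripts had 55.7 to 73.5% GC. The summed epithelial, immune and endothelial markers, which KRT18 dominates, were also lower with dopamine, and their part in the difference of NTSR1 was not tested.

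**Figure D1:**
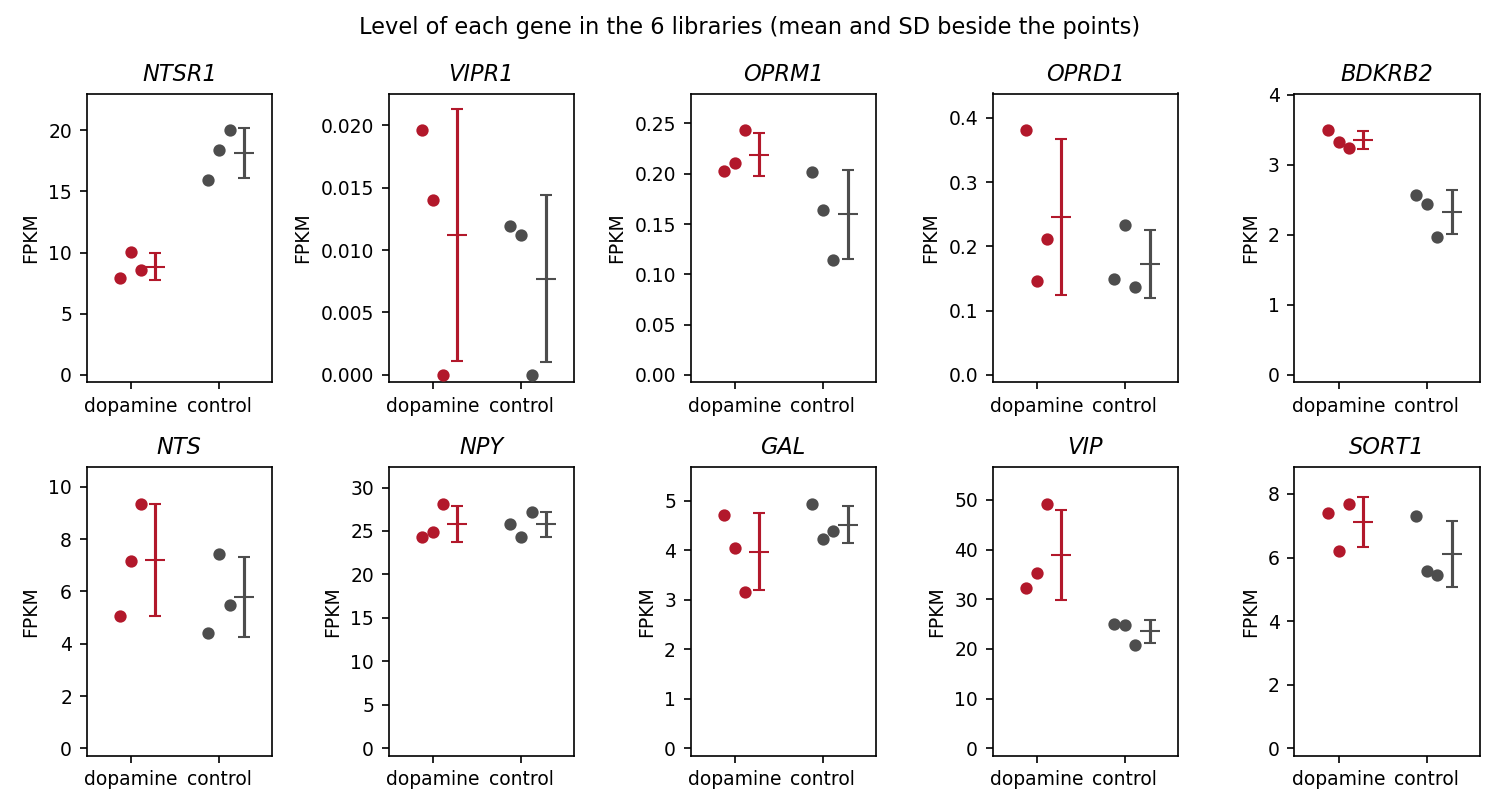
FPKM of each of the 10 genes (vertical axes from 0, a separate scale per panel) in the 3 dopamine libraries (red) and the 3 control libraries (grey), with the mean and SD beside the points. NTSR1 lay between 7.90 and 10.0 FPKM with dopamine and between 15.9 and 20.0 FPKM in control cells, while VIP and BDKRB2 were higher in every dopamine library than in any control library.

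NTS (ENSG00000133636.6, chromosome 12, 86268073 to 86276770) encodes the common precursor of neurotensin and neuromedin N. It was measured at 5.06, 7.16 and 9.36 FPKM in dopamine replicates 1, 2 and 3 and at 4.42, 7.43 and 5.47 FPKM in control replicates 1, 2 and 3. The ranges overlapped, and control replicate 2 lay above dopamine replicates 1 and 2. The log2 fold change of 0.28 (SE 0.22) turned to -0.06 (SE 0.19) after the correction for GC content, which is 34.6% in this transcript, the lowest of the 10 genes. As deposited, it was 0.09 without dopamine replicate 3, 0.50 without dopamine replicate 1, 0.12 without control replicate 1 and 0.47 without control replicate 2.

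SORT1 (ENSG00000134243.7, chromosome 1, 109852192 to 109940573), the sortilin gene, stood at 7.41, 6.22 and 7.70 FPKM in dopamine replicates 1, 2 and 3 and at 7.30, 5.58 and 5.46 FPKM in control replicates 1, 2 and 3. Again the ranges overlapped, with control replicate 1 near the dopamine values. Its log2 fold change was 0.21 (SE 0.13), and 0.01 (SE 0.08) after the correction. As deposited, the SORT1 value was 0.33 without control replicate 1 and 0.14 without control replicate 3. The cells thus held RNA of NTS, NTSR1 and SORT1 in both groups. With dopamine the 3 genes lay close together as deposited, at means of 8.83 ± 1.10 FPKM for NTSR1, 7.19 ± 2.15 FPKM for NTS and 7.11 ± 0.786 FPKM for SORT1. The range of NTS overlapped both others, and the highest SORT1 value of 7.70 FPKM lay just below the lowest NTSR1 value of 7.90 FPKM. In control cells NTSR1 stood above both, at 18.1 ± 2.05 FPKM against 5.77 ± 1.53 FPKM for NTS and 6.11 ± 1.03 FPKM for SORT1, and its range overlapped neither. After the correction NTSR1 lay above both with dopamine as well, at 3.10 to 3.43 log2 units. NTS was then at 2.45 to 2.94 and SORT1 at 2.71 to 2.94 with dopamine.

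VIP (ENSG00000146469.8, chromosome 6, 153071933 to 153080900), the precursor gene of vasoactive intestinal peptide, was measured at 32.2, 35.4 and 49.2 FPKM in dopamine replicates 1, 2 and 3, against 24.9, 24.9 and 20.8 FPKM in control replicates 1, 2 and 3. Every dopamine value lay above every control value, and dopamine replicate 3 stood well above the other two. The log2 fold change was 0.69 (SE 0.15). It was 0.33 (SE 0.08) after the correction and 0.43 without both libraries numbered 3, which had the steepest GC slopes; the VIP transcript has 37.0% GC. VIPR1 (ENSG00000114812.8, chromosome 3, 42530791 to 42579059), a receptor gene for this peptide, was listed at 0.0196, 0.0140 and 0 FPKM in dopamine replicates 1, 2 and 3 and at 0.0119, 0.0112 and 0 FPKM in control replicates 1, 2 and 3. With a transcript of 3759 bases this is between 0 and about 1.52 fragments per library, so no difference was detectable at this depth. VIPR2, a second receptor gene for the peptide, was likewise near 0, at 0.0647, 0.0099 and 0 FPKM in dopamine replicates 1, 2 and 3 and at 0.0421, 0 and 0.0648 FPKM in control replicates 1, 2 and 3.

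NPY (ENSG00000122585.3, chromosome 7, 24323782 to 24331484), the neuropeptide Y gene, stood at 24.4, 24.9 and 28.1 FPKM in dopamine replicates 1, 2 and 3 and at 25.9, 24.3 and 27.2 FPKM in control replicates 1, 2 and 3. These ranges coincided almost fully, with a log2 fold change of -0.000836 (SE 0.09) as deposited and 0.10 (SE 0.09) after the correction. GAL (ENSG00000069482.6, chromosome 11, 68451247 to 68458643), the galanin gene, stood at 4.71, 4.05 and 3.17 FPKM in dopamine replicates 1, 2 and 3 and at 4.94, 4.22 and 4.39 FPKM in control replicates 1, 2 and 3. Its ranges overlapped, and dopamine replicate 3 was the lowest value. The log2 fold change of GAL was -0.18 (SE 0.14), and -0.04 (SE 0.11) after the correction. As deposited, it was -0.30 without dopamine replicate 1, -0.04 without dopamine replicate 3 and -0.12 without control replicate 1.

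BDKRB2 (ENSG00000168398.5, chromosome 14, 96671016 to 96710666) encodes the constitutively expressed bradykinin receptor. It was measured at 3.49, 3.33 and 3.23 FPKM in dopamine replicates 1, 2 and 3, against 2.57, 2.44 and 1.97 FPKM in control replicates 1, 2 and 3. Each dopamine value lay above each control value. The log2 fold change was 0.45 (SE 0.12), and 0.41 (SE 0.10) after the correction, which thus moved this value less than those of NTSR1 and VIP. A pseudogene and a sense intronic gene overlap the BDKRB2 span in the table, at up to 1.28 and 0.0897 FPKM. The neighbouring gene BDKRB1, which encodes the inducible bradykinin receptor, averaged 5.39 ± 0.820 FPKM with dopamine and 4.61 ± 0.579 FPKM in control cells, with overlapping ranges.

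Both opioid receptor genes were low. OPRM1 (ENSG00000112038.13, chromosome 6, 154331631 to 154568001), the mu receptor gene, stood at 0.203, 0.211 and 0.243 FPKM in dopamine replicates 1, 2 and 3 and at 0.202, 0.164 and 0.114 FPKM in control replicates 1, 2 and 3, so that the ranges did not overlap but nearly touched. OPRD1 (ENSG00000116329.6, chromosome 1, 29138654 to 29190208), the delta receptor gene, stood at 0.381, 0.145 and 0.211 FPKM with dopamine and at 0.149, 0.233 and 0.136 FPKM in control replicates 1, 2 and 3, with overlapping ranges. With their longest transcripts of 2594 and 9345 bases, these values stand for about 6.08 to 13.5 fragments of OPRM1 and 26.3 to 73.5 of OPRD1 per library. Fitted with no filter on low values, OPRM1 had a log2 fold change of 0.13 (SE 0.08) and OPRD1 one of 0.14 (SE 0.13), values that the added constant of 0.5 FPKM understates.

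Of the 10 genes, 7 had a mean of at least 1 FPKM over the 6 libraries and entered the fit across 11791 genes, while VIPR1, OPRM1 and OPRD1 did not. NTSR1 was the 1 member past an adjusted p of 0.05 (limma, Benjamini-Hochberg over all tested genes) and 6 did not pass, where 0.102% of all tested genes did (12 genes, of which 10, or 0.0848%, were higher and 2, or 0.017%, lower with dopamine). The adjusted p in limma was 0.0156 for NTSR1 and 0.11 for VIP and BDKRB2, the nearest members outside the threshold. NTSR1 was chosen on this comparison, so nothing is read from that count. NTSR1 no longer passed without control replicate 2, control replicate 3, dopamine replicate 1 or dopamine replicate 3, while its log2 fold change stayed between -0.92 and -1.09 when any 1 library was left out. VIP and BDKRB2 passed without control replicate 1, when 2193 genes were called in all. Of the 7 tested members, 2 were higher and 1 was lower in every dopamine library than in any control library, against 24.4% and 14.1% of all tested genes (38.4% together), so these counts lie near the background. The same 3 members had an unadjusted p under 0.05 in limma, as did 32.5% of all tested genes.

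**Figure D2:**
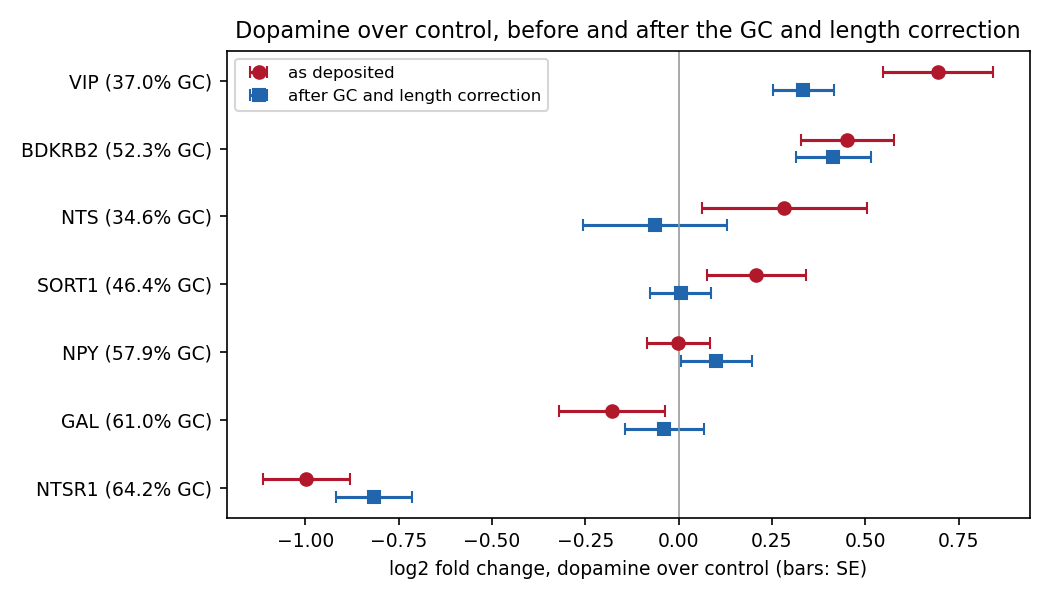
Log2 fold change of dopamine over control (horizontal axis, bars are SE) of the 7 members in the fit, as deposited (red circles) and after the GC and length correction (blue squares), with the GC content of each transcript beside its name. NTSR1 moved to -0.82 and BDKRB2 to 0.41 after the correction, whereas VIP moved to 0.33 and NTS and SORT1 came to lie near 0.

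In the order of levels as deposited VIP and NPY changed places between the groups, as did NTS and SORT1, and NTSR1 was the third in both. With dopamine it ran from VIP (38.9 ± 9.05 FPKM) and NPY (25.8 ± 2.04 FPKM) through NTSR1, NTS and SORT1 to GAL (3.98 ± 0.776 FPKM) and BDKRB2 (3.35 ± 0.132 FPKM), then the opioid receptor genes and VIPR1. In control cells it ran from NPY (25.8 ± 1.44 FPKM) and VIP (23.5 ± 2.36 FPKM) through NTSR1, SORT1 and NTS to GAL (4.52 ± 0.377 FPKM) and BDKRB2 (2.33 ± 0.318 FPKM), with the same 3 genes last. VIP and NPY overlapped in control cells and did not with dopamine. The pairs NTS and SORT1, and OPRD1 and OPRM1, overlapped in both groups, as did GAL and BDKRB2 with dopamine and NTS and GAL in control cells. After the GC and length correction VIP lay narrowly above NPY in both groups. In control cells the lowest VIP value was 4.73 log2 units and the highest NPY value 4.72. With dopamine these were 4.99 and 4.97. NTS and SORT1 still overlapped in both groups. Averaged over all 6 libraries, VIP stood above 94.7% and NPY above 93.5% of the genes in the table, NTSR1 above 88.2% and BDKRB2 above 68.6%.

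Other neuropeptide precursor genes were mostly below 1 FPKM. Of a fixed list of such genes 28 were in the table and 7 had a mean of at least 1 FPKM. None passed the adjusted threshold in limma, 1 was higher and none lower at an unadjusted p under 0.05, with a median log2 fold change of 0.01. Of all tested genes 24.4% were higher and 8.05% lower at that p, with a median of 0.08. After the GC and length correction 1 of the 7 was higher and none lower at that p (8.14% and 8.82% of all tested genes). PTHLH, the gene of parathyroid hormone-related protein, averaged 5.86 ± 0.271 FPKM with dopamine and 4.23 ± 0.187 FPKM in control cells (limma adjusted p = 0.11), with a log2 fold change of 0.43 as deposited and 0.27 after the correction. Neuromedin B (NMB) and adrenomedullin (ADM) were the most abundant of the list, NMB at 14.2 ± 1.49 FPKM with dopamine and 15.4 ± 0.221 FPKM in control cells and ADM at 11.0 ± 1.83 FPKM with dopamine and 10.6 ± 0.558 FPKM in control cells. The precursor genes NPW (1.67 ± 0.0853 FPKM with dopamine and 2.03 ± 0.353 FPKM in control cells) and APLN (1.05 ± 0.113 FPKM and, in control cells, 1.32 ± 0.293 FPKM) had overlapping ranges. VIP and NPY thus exceeded every other precursor gene of the list in every library.

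Among 43 other genes of neuropeptide receptors and their partner proteins in the table, 10 had a mean of at least 1 FPKM. None was called in limma, while 2 were higher and none was lower at an unadjusted p under 0.05 (24.4% and 8.05% of all tested genes). The median log2 fold change of the 10 was -0.11. After the GC and length correction none was higher and 1 was lower at that p (8.14% and 8.82% of all tested genes). NPFFR2, a receptor gene for neuropeptide FF, averaged 3.68 ± 0.404 FPKM with dopamine and 2.62 ± 0.173 FPKM in control cells, and the endothelin receptor gene EDNRA averaged 2.56 ± 0.539 FPKM with dopamine and 1.69 ± 0.248 FPKM in control cells (limma adjusted p = 0.11 and 0.113). After the GC and length correction their log2 fold changes were 0.19 and 0.14, against 0.42 and 0.48 before. APLNR, the apelin receptor gene, and RAMP2, which encodes a partner protein of calcitonin-family receptors, averaged 0.969 ± 0.196 and 2.40 ± 0.179 FPKM with dopamine, against 1.33 ± 0.189 and 2.92 ± 0.238 FPKM in control cells. RAMP1, another such partner gene, was the most abundant of the list at 20.6 ± 4.16 FPKM with dopamine and 20.8 ± 2.22 FPKM in control cells. Among genes of the receptors themselves, NTSR1 was the highest in every control library and also in every dopamine library.

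**Figure D3:**
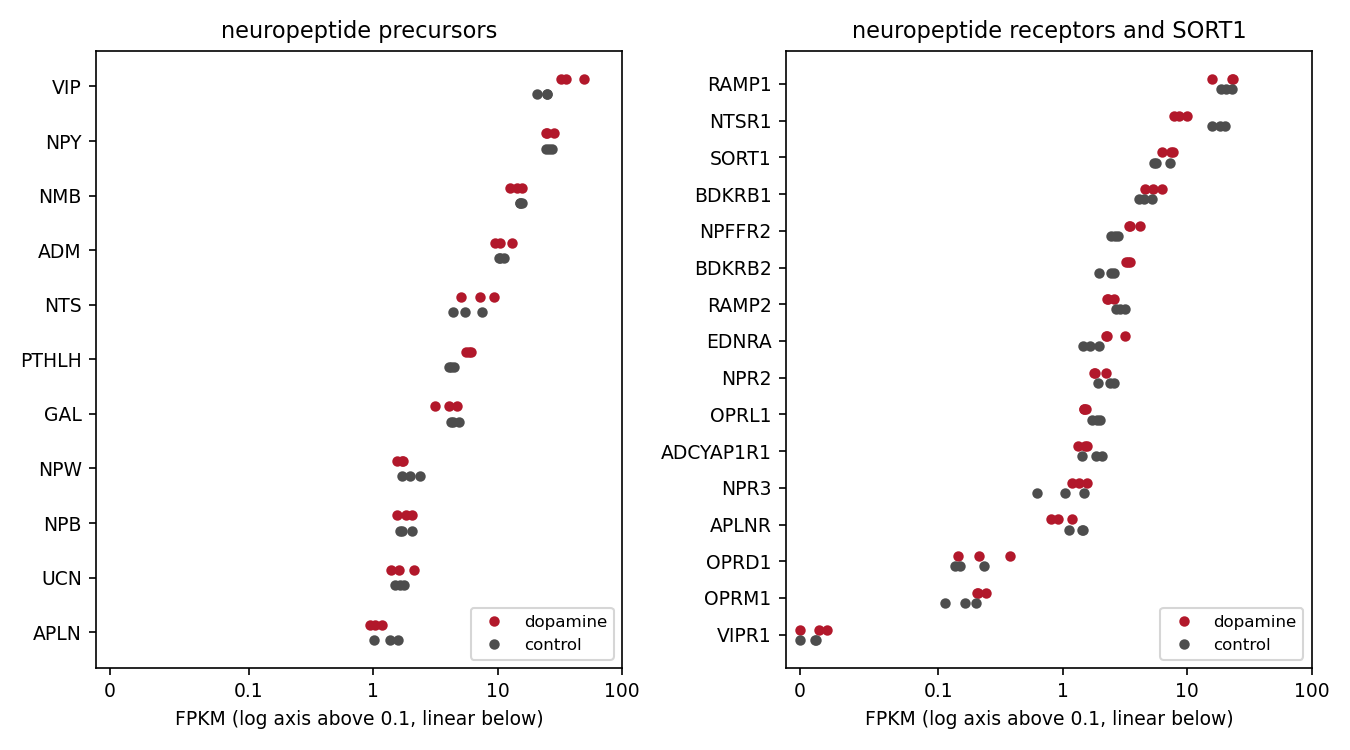
FPKM in each dopamine (red) and control (grey) library of the precursor genes (left) and the receptor genes with SORT1 (right): the 10 genes described above and every gene of the 2 fixed lists with a mean of at least 1 FPKM. The horizontal axis is logarithmic above 0.1 and linear below. VIP and NPY lead the precursors, and NTSR1 leads the receptor genes in both groups when the partner gene RAMP1 is set aside.

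Genes that process and store prohormones were well expressed. The granule genes VGF and SCG2 were the most abundant, VGF at 625 ± 48.7 FPKM with dopamine and 657 ± 45.7 FPKM in control cells. SCG2, the secretogranin II gene, was measured at 488, 533 and 628 FPKM in dopamine replicates 1, 2 and 3, against 419, 392 and 322 FPKM in control replicates 1, 2 and 3. Its groups did not overlap, and its log2 fold change of 0.54 (SE 0.12) became 0.25 after the correction (limma adjusted p = 0.11 and 0.163 after the correction). The protease gene CTSL averaged 41.6 ± 3.85 FPKM with dopamine and 30.8 ± 0.703 FPKM in control cells, with a log2 fold change of 0.42 as deposited and 0.40 after the correction. The vesicle trafficking genes SYT4 and RAB27B averaged 7.66 ± 2.07 and 10.3 ± 1.84 FPKM with dopamine, against 4.36 ± 1.17 and 6.01 ± 2.05 FPKM in control cells, and their log2 fold changes of 0.75 and 0.78 became 0.34 and 0.30 after the correction. Of the list's 29 genes on file, 20 were tested and none was called in limma, while 9 were higher and 1 was lower at an unadjusted p under 0.05, where 24.4% and 8.05% of all tested genes were. The median log2 fold change was 0.23, and 0.16 after the correction. After it 8 were higher and 1 was lower at that p (8.14% and 8.82% of all tested genes). The convertase gene PCSK1, chosen after its values were seen, was listed at 0.0088 FPKM in dopamine replicate 3 and at 0 in the other 5 libraries, whereas FURIN, a convertase of the Golgi, stood at 39.6 ± 3.76 FPKM with dopamine and 43.2 ± 2.15 FPKM in control cells.

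Peptidases that cleave neuropeptides had 15 tested genes of 18 in the table. In limma none was called, with 3 above and 4 below control at an unadjusted p under 0.05 (24.4% and 8.05% of all tested genes), and the median log2 fold change was 0.07. After the correction none was above and 1 was below at that p (8.14% and 8.82% of all tested genes). THOP1, a peptidase gene, averaged 20.9 ± 2.31 FPKM with dopamine and 25.6 ± 1.74 FPKM in control cells (log2 fold change -0.29, and -0.12 after the correction, limma adjusted p = 0.115). MME, the neprilysin gene, averaged 20.9 ± 4.08 FPKM with dopamine and 13.8 ± 4.44 FPKM in control cells (log2 fold change 0.61, limma adjusted p = 0.117), and 0.21 on the log2 scale remained after the correction. ANPEP, an aminopeptidase gene, averaged 27.3 ± 2.08 FPKM with dopamine and 33.3 ± 2.16 FPKM in control cells, with a log2 fold change of -0.28 as deposited and -0.18 after the correction. IDE, the insulin-degrading enzyme gene, averaged 4.09 ± 0.780 FPKM with dopamine and 2.79 ± 0.720 FPKM in control cells, and its log2 fold change of 0.49 became 0.08 after the correction. The most abundant were CTSB at 79.0 ± 7.06 FPKM with dopamine and 80.4 ± 1.66 FPKM in control cells and ECE1 at 67.2 ± 3.63 FPKM with dopamine and 76.1 ± 2.04 FPKM in control cells.

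Of 16 genes listed as sortilin-related receptors and their partners 12 were tested and none was called in limma. At an unadjusted p under 0.05 in limma 3 were above and 2 below control (24.4% and 8.05% of all tested genes). The median log2 fold change was -0.02. After the GC and length correction 1 was above and 2 were below at that p (8.14% and 8.82% of all tested genes). The number tested and the median include RAP1A (log2 fold change 0.36), a small GTPase gene that is neither a sortilin-related receptor nor an established partner. Retromer, the complex that returns sortilin from endosomes to the Golgi, had VPS29 at 10.9 ± 0.817 FPKM with dopamine and 7.96 ± 0.523 FPKM in control cells and VPS35 at 7.85 ± 1.34 FPKM with dopamine and 5.16 ± 1.0 FPKM in control cells. After the correction the log2 fold change of VPS29 was 0.12, against 0.43 before, and that of VPS35 was 0.24, against 0.57 before. NGFR, the gene of the neurotrophin receptor that pairs with sortilin, was at 1.95, 1.91 and 1.79 FPKM in dopamine replicates 1, 2 and 3, against 3.03, 2.80 and 2.75 FPKM in control replicates 1, 2 and 3. NGFR did not overlap between the groups, with a log2 fold change of -0.49, and of -0.33 after the correction. GRN, the gene of the sortilin ligand progranulin, was the most abundant at 88.7 ± 9.41 FPKM with dopamine and 94.9 ± 3.04 FPKM in control cells, followed by LRPAP1 at 13.6 ± 0.943 FPKM with dopamine and 13.9 ± 0.161 FPKM in control cells.

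Downstream of NTSR1, 24 genes of the Gq pathway were in the table and 17 were tested. None was called in limma, with 5 above and 3 below control at an unadjusted p under 0.05 (24.4% and 8.05% of all tested genes). The median log2 fold change was 0.02. After the GC and length correction 2 were above and 1 was below at that p (8.14% and 8.82% of all tested genes). RGS2, which encodes an inhibitor of Gq, was measured at 24.7, 22.6 and 26.3 FPKM in dopamine replicates 1, 2 and 3, against 17.1, 13.4 and 9.44 FPKM in control replicates 1, 2 and 3. Every dopamine value of RGS2 lay above every control value, and its log2 fold change was 0.90 (SE 0.18), or 0.64 after the correction (limma adjusted p = 0.11 and 0.138 after the correction). RGS4, a related inhibitor gene, averaged 56.4 ± 8.85 FPKM with dopamine and 39.1 ± 6.50 FPKM in control cells, a log2 fold change of 0.52 that became 0.14 after the correction. Among the other genes ITPR3, a calcium release channel gene, averaged 3.68 ± 0.154 FPKM with dopamine and 4.67 ± 0.423 FPKM in control cells, and PRKCE, a protein kinase C gene, 2.39 ± 0.222 FPKM with dopamine and 1.81 ± 0.119 FPKM in control cells. The log2 fold change of ITPR3 was -0.30 as deposited and -0.20 after the correction, and that of PRKCE was 0.32 as deposited and 0.15 after it. The G protein gene GNA11 averaged 25.7 ± 1.91 FPKM with dopamine and 29.2 ± 1.12 FPKM in control cells. With the GC and length correction none of the genes of the 6 lists was called either.

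**Figure D4:**
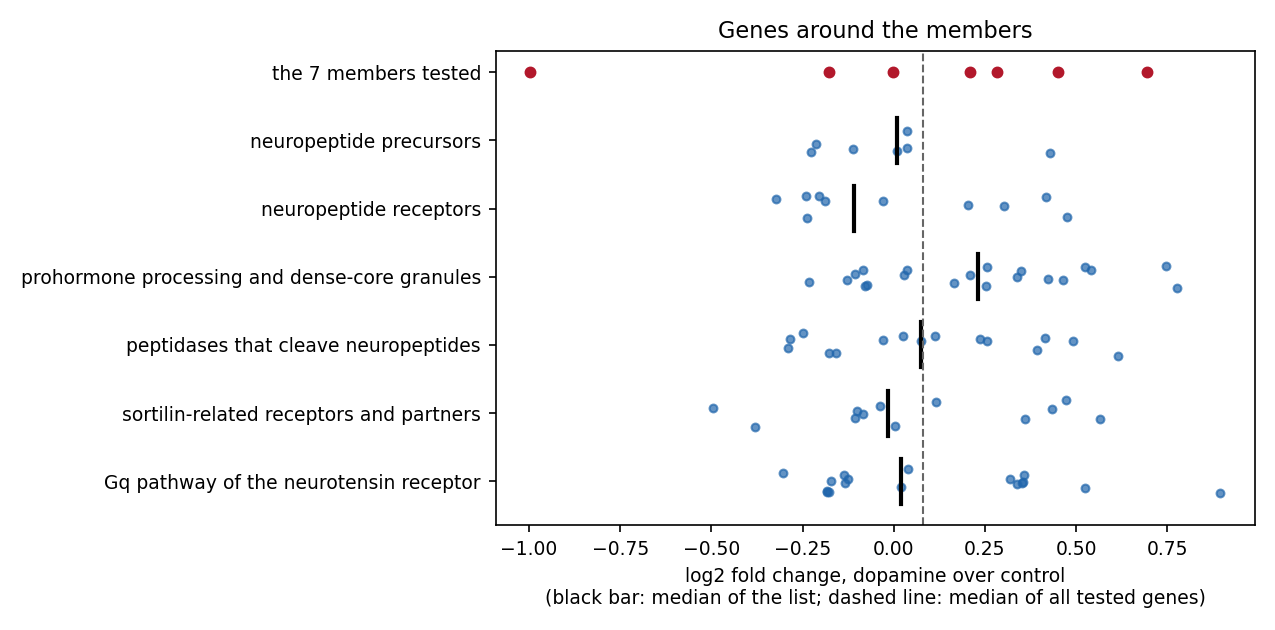
Log2 fold change of dopamine over control (horizontal axis) of the 7 members tested (red) and of the tested genes of the 6 fixed lists (blue, 1 point per gene, spread vertically for visibility), with each list's median (black bar) and the median of all tested genes (dashed line). NTSR1 at -1.0 lies below every gene of the lists, and RGS2 at 0.90 is the highest point.

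**Figure D5:**
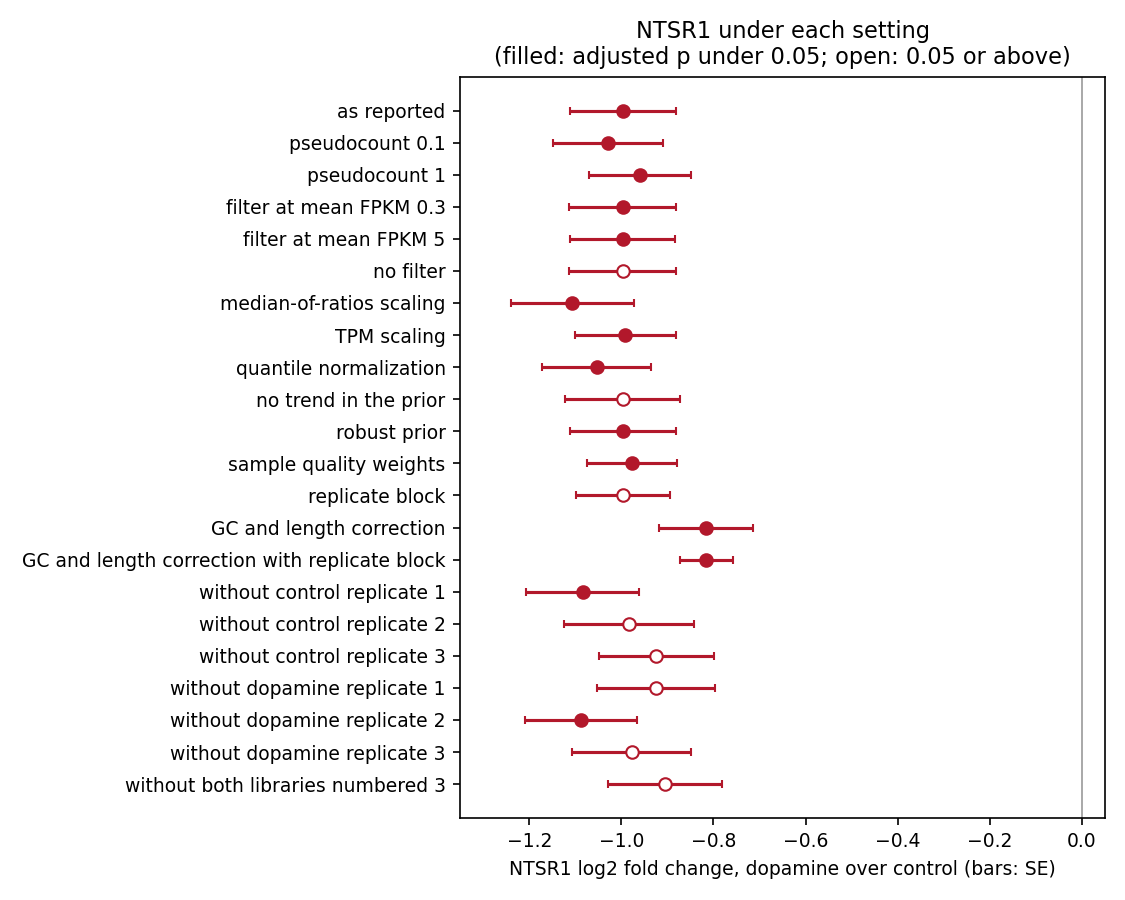
NTSR1 log2 fold change of dopamine over control (horizontal axis, bars are SE) in the fit as reported and under each of 21 alternative settings. Filled points passed an adjusted p of 0.05 (limma, Benjamini-Hochberg) and open points did not; all values lie between -0.82 and -1.11.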

How the data were processed

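RNA of 6 SK-N-SH samples was measured. Per the labels' protocols, ribosomal RNA was removed and stranded total RNA libraries were made with random primers. The authors deposited FPKM values with hg19 coordinates. The submitters' processing notes list hg19, DESeq2 1.40.2, HTSeq 0.11.2, STAR 2.7.1a and FastQC 0.11.9 without their roles. No source used here gives the strand setting or how FPKM was made, so overlapping genes are uncertain.

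Library totals were recovered from 2797 pseudogenes spanning 150 to 1500 bases: 92.3 to 94.0% of their low values were whole fragments within 0.03. Groups were compared on log2(FPKM + 0.5), for genes with a mean of at least 1 FPKM (11791), with limma 3.58.1 in R 4.3.3 (intensity trend, two-sided, Benjamini-Hochberg, threshold 0.05). The fit was tested on simulated data, drawn with independent noise and no GC trend, so that test does not cover the trend seen here. The correction was a loess (span 0.5) of each library on the GC content and the log2 length of each gene's longest GENCODE transcript, by gene identifier (11579 genes, 98.2%); it can remove part of a real difference, since the GC trend moved with the groups.

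The members, lists, settings and rule were chosen with earlier results of these data known. Named were all members, and per list the 4 smallest p and 2 highest levels, since none was called, with a few genes added to describe a group after their values were seen (VIPR2, PCSK1, FURIN). The 5 genes closest to NTSR1 were also named. One gene that this rule names is not reported here.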

Additional observations from a re-analysis of the deposited data

How the results depend on the processing

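NTSR1 was lower with dopamine in all 21 alternative settings and passed the adjusted threshold in 13. Its log2 fold change was -1.0 with no filter, with no trend in the prior and with the replicate block, and -0.91 without both libraries numbered 3, and it did not pass in any of these 4. It ran from -1.09 to -0.92 when 1 library was left out. The number of genes called, 12 as reported, was 6 with no filter, 27 with quantile normalization, 5 with no trend, 2706 with sample quality weights, 28 with the GC and length correction, 7 without both libraries numbered 3, and 3 to 2193 when 1 library was left out. The replicate block gave 3 calls, and 8 together with the correction. Whether replicate numbers pair the samples is not known. Same-numbered libraries had correlations of deviations of -0.20, 0.28 and -0.37 as deposited, and these deviations hold each library's GC trend. With the correction, the SE of each tested member was smaller with the block than without it (0.06 against 0.10 for NTSR1). Of the calls 83.3% were higher with dopamine, and 66.7% with quantile normalization. Members called numbered 0 with no filter, with no trend, with the replicate block and without both libraries numbered 3, 3 with sample quality weights (VIP and BDKRB2 were added), and 0 to 3 when 1 library was left out. Genes of the fixed lists called numbered 26 with sample quality weights and 0 to 23 when 1 library was left out. NPY changed sign with TPM scaling (0.00528), quantile normalization (0.000297) and the correction (0.10, also with the block), and ran from -0.0635 to 0.0384 when 1 library was left out. NTS changed sign with sample quality weights (-0.0680) and the correction (-0.0645, also with the block). Median-of-ratios scaling shifted the median of all genes from 0.08 to -0.02, and NTSR1 was then at -1.11. The cause of these changes was not tested. Depth limits VIPR1, with 0 to 1.52 fragments per library, and OPRM1, with 6.08 to 13.5.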
